A study of Homo sapiens with 6 samples.

Results

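The miRNAs described here are the 9 mature arms of the miR-106b-25 and miR-106a-363 clusters that were chosen by name, out of 2588 mature miRNAs listed in the count table. They comprise 6 arms of the miR-106b-25 cluster, hsa-miR-106b-5p, hsa-miR-106b-3p, hsa-miR-93-5p, hsa-miR-93-3p, hsa-miR-25-5p and hsa-miR-25-3p, and 3 arms of the miR-106a-363 cluster, hsa-miR-106a-5p, hsa-miR-20b-5p and hsa-miR-363-3p. The libraries come from Caco-2, an established human colorectal adenocarcinoma cell line, with no treatment or genotype that separates the groups. RNA from these cells was decapped, heat-denatured and immunoprecipitated with an antibody against 7-methylguanosine (m7G), which gave the 3 m7G-RIP libraries. Decapping was meant to remove the m7G of mRNA caps, so that internal m7G was the target. By the study's protocol, an aliquot of the decapped and denatured RNA, set aside before the antibody was added, gave the 3 input libraries. The question was which arms of the clusters were recovered with the antibody and whether arms of one hairpin or of one seed group were recovered alike. All values describe bulk RNA, so fewer cells with a miRNA and fewer copies per cell cannot be told apart.

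A miRNA hairpin is cut out of its primary transcript by DROSHA and trimmed by DICER1 to a duplex, from which the 5p or the 3p strand is loaded into an Argonaute protein while its partner is usually degraded. The seed, bases 2 to 8 of the loaded strand, selects the target mRNAs. Both clusters are paralogs of the oncogenic miR-17/92 cluster. The miR-17 seed group is known to repress the cell cycle inhibitor CDKN1A, and the miR-25/92 seed group is known to repress the pro-apoptotic gene BCL2L11. METTL1 is a methyltransferase best known for placing m7G in tRNAs.

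The mature sequences of the 9 members are shown first because arms with the same seed ended at different places in the enrichment order. Sequences were taken from RefSeq (GRCh38.p14) and run 5′ to 3′, with the seed in capitals. The first 4 share the seed AAAGUGC, the next 2 share AUUGCAC, and the last 3 each have a seed of their own.
hsa-miR-106b-5p: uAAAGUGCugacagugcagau
hsa-miR-93-5p: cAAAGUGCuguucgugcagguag
hsa-miR-106a-5p: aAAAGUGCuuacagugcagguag
hsa-miR-20b-5p: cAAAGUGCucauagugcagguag
hsa-miR-25-3p: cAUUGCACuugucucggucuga
hsa-miR-363-3p: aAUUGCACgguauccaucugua
hsa-miR-106b-3p: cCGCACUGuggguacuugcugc
hsa-miR-93-3p: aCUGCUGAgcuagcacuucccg
hsa-miR-25-5p: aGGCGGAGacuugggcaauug

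The miR-106b-25 cluster lies on the minus strand of chromosome 7 (GRCh38) within 515 bases. MIR106B is at chr7:100093993-100094074, MIR93 at chr7:100093768-100093847 and MIR25 at chr7:100093560-100093643. All lie in introns of MCM7, a subunit of the replicative helicase, except that an exon of 1 of its transcripts overlaps MIR93. The miR-106a-363 cluster lies on the minus strand of chromosome X within 901 bases from MIR106A to MIR363. MIR106A is at chrX:134170198-134170278, MIR20B at chrX:134169809-134169877 and MIR363 at chrX:134169378-134169452, all within exons of the lncRNA gene ENSG00000283638.

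The hairpins MIR106B and MIR25 are printed because their arms were the most unequally recovered. The arms stand in capitals, the 5p arm first.
MIR106B: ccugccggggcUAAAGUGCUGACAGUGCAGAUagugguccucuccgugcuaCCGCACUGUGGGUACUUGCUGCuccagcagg
MIR25: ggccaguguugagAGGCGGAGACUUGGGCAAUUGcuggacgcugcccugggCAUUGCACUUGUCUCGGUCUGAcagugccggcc

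Total counts ranged from 16466178 to 19628046 in the input and from 1654102 to 3105129 in m7G-RIP. Levels are CPM, the counts relative to library sizes scaled by TMM factors, and log2 enrichment is m7G-RIP over input from edgeR's quasi-likelihood test, with its SE and a p-value adjusted over the 800 miRNAs that passed the filter on low counts. Replicates were given by the labels, which do not say that they were separate cultures, so that p-values measure only the spread between these libraries. The 8 intestinal epithelial markers were all detected, with a summed level of 113972 to 121685 CPM in the input and 37949 to 47173 CPM in m7G-RIP, and 1 was enriched and 7 depleted (median log2 enrichment -3.49). The 12 markers of other cell types summed to 1641 to 1709 CPM in the input and 1019 to 1410 CPM in m7G-RIP, and of 8 tested none was enriched and 6 were depleted (median -2.09). Liver hsa-miR-122-5p was at 0 in every library and haematopoietic hsa-miR-223-3p at 0 in the input, whereas endothelial hsa-miR-126-3p reached 778 CPM and muscle hsa-miR-1-3p reached 644 CPM on average in the input. The part of such RNA in the values below was not tested.

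Of the 9 members, 8 passed the filter. hsa-miR-25-5p alone was enriched in m7G-RIP and the other 7 were depleted, where 40.1% of the 800 tested miRNAs were enriched and 38.1% were depleted. The median log2 enrichment of the 8 tested members was -1.98, beside 0.16 for all tested miRNAs. Input and m7G-RIP levels did not overlap for any of the 8. How often this held among all 800 tested miRNAs was not counted, so it does not set the members apart. By total counts 2 were enriched and 5 depleted, where 55.2% of all tested miRNAs were enriched and 24.8% depleted. By upper-quartile factors 1 was enriched and 6 were depleted, where 52.2% of all were enriched and 28.4% depleted. Scaling moved the members together, so that by total counts hsa-miR-25-5p was at 2.98, hsa-miR-25-3p at -0.39 and hsa-miR-106b-5p at -3.94 on the log2 scale, in the same order as with TMM factors.

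**Figure D1:**
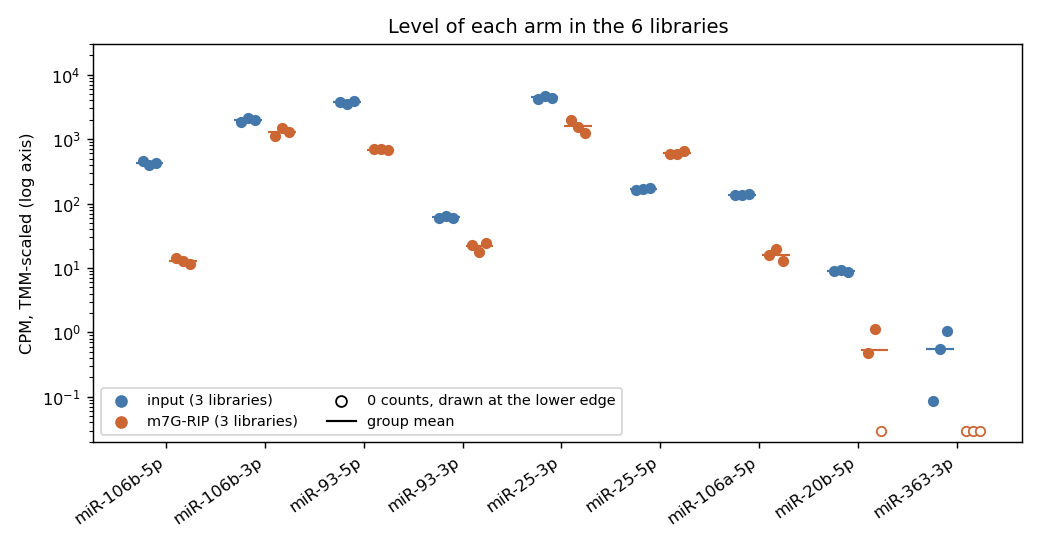
Level of each of the 9 arms in the 3 input (blue) and 3 m7G-RIP (orange) libraries, in TMM-scaled CPM on a log axis, with a bar at each group mean and open points for libraries with 0 counts. hsa-miR-25-5p is the arm with higher levels in m7G-RIP, and hsa-miR-106b-5p fell from a mean of 421 CPM to 12.9 CPM.

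The members differed widely in abundance in the input. hsa-miR-25-3p ranked 30th of the listed miRNAs, hsa-miR-93-5p ranked 35th and hsa-miR-106b-3p ranked 49th. hsa-miR-106b-5p, from the other arm of its hairpin, ranked 104th, and hsa-miR-25-5p, hsa-miR-106a-5p and hsa-miR-93-3p ranked 163rd, 176th and 218th. hsa-miR-20b-5p and hsa-miR-363-3p were rare, at ranks 359 and 881. Mature lengths ran from 21 to 23 bases, and these levels were compared without a length term. Differences between sequences in how well they enter a library were not corrected, so the ranks are of counted reads. The 4 arms with the highest input levels all came from the miR-106b-25 cluster, and no neighbours in the order of the 9 members overlapped in the 3 input libraries. In m7G-RIP the ranges of hsa-miR-25-3p and hsa-miR-106b-3p overlapped, as did those of hsa-miR-93-3p and hsa-miR-106a-5p, of hsa-miR-106a-5p and hsa-miR-106b-5p, and of hsa-miR-20b-5p and hsa-miR-363-3p.

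hsa-miR-25-5p, usually regarded as the passenger strand of MIR25, was at 162, 166 and 174 CPM in the input and at 598, 590 and 654 CPM in m7G-RIP. Every m7G-RIP library was above every input library. The mean rose from 168 ± 6.31 to 614 ± 34.9 CPM (SD, n = 3 each), a 3.66-fold enrichment (log2 1.87, SE 0.14, adjusted p = 5.29e-08). It ranked 215th of 800 in enrichment, so that many miRNAs were enriched more.

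hsa-miR-25-3p, the guide strand of the same hairpin and the most abundant member, was at 4212, 4671 and 4424 CPM in the input and at 1997, 1571 and 1242 CPM in m7G-RIP. The groups did not overlap, but the m7G-RIP libraries were spread more widely than the input libraries. The mean fell from 4436 ± 230 to 1603 ± 379 CPM (SD, n = 3 each), 2.77-fold lower (log2 -1.47, SE 0.17, adjusted p = 4.36e-06).

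hsa-miR-106b-5p, usually regarded as a guide strand of the miR-17 seed group, was the most strongly depleted member. In these libraries it was the less abundant arm of its hairpin. Its counts were 5307, 4981 and 4824 in the input and 58, 58 and 31 in m7G-RIP, which gave 452, 390 and 421 CPM against 14.1, 13.1 and 11.4 CPM. Both groups were tight and far apart. The level fell 32.5-fold (log2 -5.02, SE 0.19, adjusted p = 9.37e-11), and it ranked 31st from the lowest of 800 under each of the 4 scalings tried.

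hsa-miR-106b-3p, the partner strand of hsa-miR-106b-5p, lost far less. It was at 1839, 2102 and 1985 CPM in the input and at 1138, 1481 and 1306 CPM in m7G-RIP, so that its mean went from 1975 ± 132 to 1308 ± 171 CPM (SD, n = 3 each). It was called depleted 1.51-fold with TMM factors (log2 -0.59, SE 0.14, adjusted p = 0.00191), but its sign turned with scaling, to 0.52 by total counts (adjusted p = 0.00713) and 0.22 by upper-quartile factors (adjusted p = 0.237). These scalings moved the median log2 enrichment of all tested miRNAs by 1.09 and 0.82, and the share of calls that were enriched from 51.3% to 69.1% and 64.8%. Its place among the miRNAs moved little, from 471st to 473rd of 800.

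hsa-miR-93-5p was the most abundant of the cluster members with the miR-17 seed. It was at 3718, 3538 and 3859 CPM in the input and at 691, 707 and 668 CPM in m7G-RIP. All m7G-RIP libraries were below all input libraries, and the level fell 5.38-fold (log2 -2.43, SE 0.13, adjusted p = 2.3e-09). Its partner strand hsa-miR-93-3p was scarce, at 59.6, 65.3 and 60.1 CPM in the input and 22.6, 17.8 and 24.3 CPM in m7G-RIP. The fall of hsa-miR-93-3p was 2.87-fold (log2 -1.52, SE 0.21, adjusted p = 2.26e-05), and it was no longer called with total counts (log2 -0.42, adjusted p = 0.104).

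On chromosome X, hsa-miR-106a-5p, the homologue of hsa-miR-17-5p, was at 134, 133 and 142 CPM in the input and at 15.8, 19.6 and 12.9 CPM in m7G-RIP. The groups did not overlap, and the level fell 8.38-fold (log2 -3.07, SE 0.20, adjusted p = 1.61e-08). hsa-miR-20b-5p, the homologue of hsa-miR-20a-5p, had 107, 120 and 99 counts in the input and 2, 5 and 0 counts in m7G-RIP. It was depleted in every m7G-RIP library (log2 -3.86, SE 0.56, adjusted p = 3.58e-05), but with so few counts its size was poorly set, and without m7G-RIP replicate 2 it was -5.04.

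hsa-miR-363-3p, a miR-25/92 seed member, had 1, 7 and 12 counts in the input and 0 in all 3 m7G-RIP libraries, and did not pass the filter. A count of 0 over the 3 m7G-RIP libraries together allows up to 3 counts, or 0.266 CPM, beside an input mean of 0.560 ± 0.481 CPM (SD, n = 3) that ran from 0.0853 to 1.05 CPM. Input replicate 1 lay below that limit and the other 2 lay above it. When the filter was dropped, hsa-miR-363-3p was called depleted (adjusted p = 0.0258 over all miRNAs in that fit), on few counts. Such limits cover counting error only, since the reads carry no molecular identifiers.

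**Figure D2:**
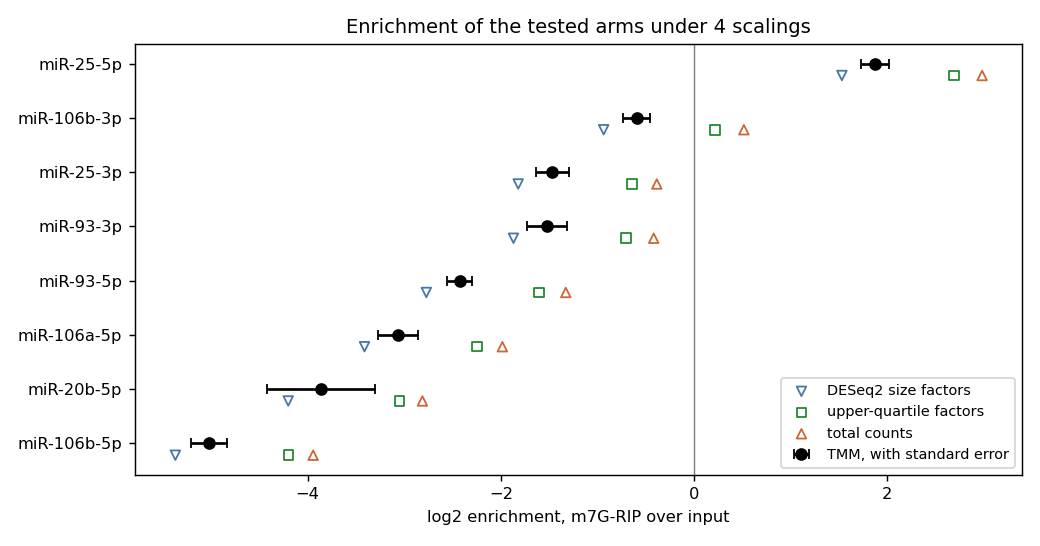
Log2 enrichment of m7G-RIP over input for the 8 tested arms, with TMM factors and bars of 1 SE, from 3 input and 3 m7G-RIP libraries. Open markers show scaling by DESeq2 size factors, upper-quartile factors and total counts. With TMM factors the arms run from 1.87 for hsa-miR-25-5p to -5.02 for hsa-miR-106b-5p, with hsa-miR-106b-3p nearest to 0 at -0.59. By total counts hsa-miR-25-3p is nearest to 0 at -0.39.

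To compare arms without a choice of scaling, the log2 ratio of the counts of 2 arms was taken within each library and compared by an exact permutation test (two-sided, smallest possible p = 0.1, 8 pairs adjusted together). No pair can reach 0.05 in this design. For 6 of the 8 pairs the input and m7G-RIP ratios did not overlap, each with p = 0.1 and adjusted p = 0.133 in the exact test.

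In MIR106B the 3p arm outnumbered the 5p arm 4.07, 5.39 and 4.71 times in the input and 80.8, 113 and 114 times in m7G-RIP. The log2 ratio of 5p over 3p thus went from -2.23 ± 0.20 to -6.65 ± 0.28 (SD, n = 3 each), a 21.4-fold shift toward hsa-miR-106b-3p. This was the widest shift of the 3 hairpins.

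In MIR25 the shift was toward the 5p arm. hsa-miR-25-3p outnumbered hsa-miR-25-5p 26.0, 28.1 and 25.4 times in the input but 3.34, 2.66 and 1.90 times in m7G-RIP, a 10.3-fold rise of the 5p over 3p ratio (log2 -4.73 ± 0.08 to -1.36 ± 0.41, SD, n = 3 each). In MIR93 the change was smaller. The 5p arm outnumbered the 3p arm 62.4, 54.2 and 64.2 times in the input and 30.6, 39.8 and 27.5 times in m7G-RIP, a 1.88-fold fall. The strand that gained on its partner in m7G-RIP was thus the less abundant one in MIR25 and MIR93 and the more abundant one in MIR106B. With TMM factors only hsa-miR-25-5p was itself enriched, while hsa-miR-93-3p and hsa-miR-106b-3p were depleted less than their partners.

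**Figure D3:**
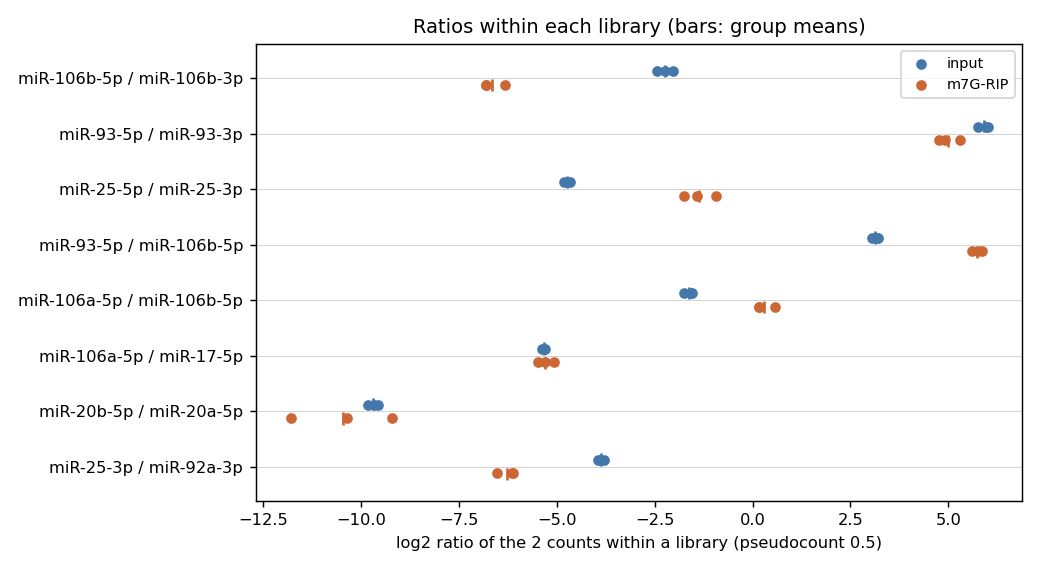
Log2 ratio of the counts of 2 arms within each library (pseudocount 0.5) for the 8 pairs, with input libraries in blue and m7G-RIP libraries in orange. Both groups overlap for hsa-miR-106a-5p over hsa-miR-17-5p and for hsa-miR-20b-5p over hsa-miR-20a-5p, and are apart for the other 6 pairs.

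The 6 arms of the miR-106b-25 cluster together held 0.736% ± 0.025 of all counts in the input and 0.621% ± 0.023 in m7G-RIP (SD, n = 3 each). Within this sum, hsa-miR-25-5p went from 1.56% ± 0.038 to 14.5% ± 1.91 and hsa-miR-106b-3p from 18.3% ± 0.819 to 30.9% ± 4.69. hsa-miR-93-5p went from 34.4% ± 1.80 to 16.2% ± 0.817, and hsa-miR-106b-5p from 3.92% ± 0.386 to 0.302% ± 0.0121. hsa-miR-25-3p remained the largest part on average, at 41.2% ± 1.34 and 37.5% ± 6.64, although its share in m7G-RIP ran from 31.8% to 44.8%. hsa-miR-93-3p stayed below 1 percent, at 0.573% ± 0.0233 and 0.512% ± 0.108. These shares are a description and were not tested.

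**Figure D4:**
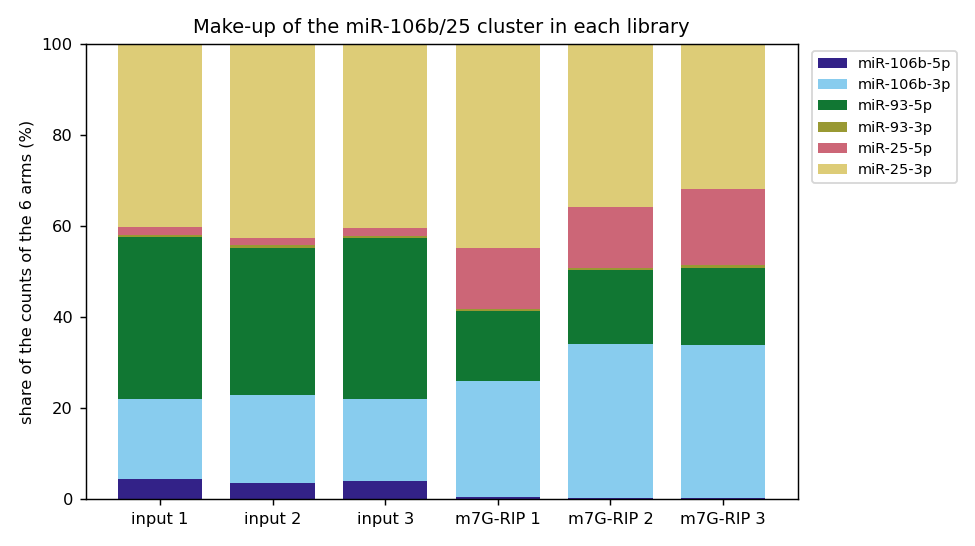
Share of each of the 6 miR-106b-25 arms in their summed counts (percent), as 1 stacked bar per library for the 3 input and 3 m7G-RIP libraries. The part of hsa-miR-25-5p is 1.56% on average in the input and 14.5% in m7G-RIP.

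The 4 members with the seed AAAGUGC were all depleted, but to unequal extents. Their summed level fell from 4272 ± 183 to 718 ± 24.3 CPM (SD, n = 3 each), and most of it was hsa-miR-93-5p in both groups. hsa-miR-93-5p outnumbered hsa-miR-106b-5p 8.22, 9.07 and 9.17 times in the input and 49.1, 54.2 and 58.5 times in m7G-RIP, a 6.04-fold rise. Positions are counted from 1 at the 5′ end, with the base of hsa-miR-106b-5p first. Over their first 21 bases hsa-miR-106b-5p and hsa-miR-93-5p differ by U1C, A11U, C12U, A13C and A20G. hsa-miR-106b-5p ends there, whereas hsa-miR-93-5p and hsa-miR-106a-5p have 23 bases. hsa-miR-106a-5p also gained on hsa-miR-106b-5p, by 3.81-fold, and over the first 21 bases that pair differs by U1A, G10U and A20G. All of these differences lie outside the seed.

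The closest paralogs of the chromosome X members lie in the miR-17/92 cluster on chromosome 13. They are printed here, with hsa-miR-92a-3p, for comparison with the members above.
hsa-miR-17-5p: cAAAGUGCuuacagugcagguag
hsa-miR-20a-5p: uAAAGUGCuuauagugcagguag
hsa-miR-92a-3p: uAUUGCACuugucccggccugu
hsa-miR-106a-5p and hsa-miR-17-5p differ by A1C alone, and they were depleted to similar extents, with log2 enrichments of -3.07 (SE 0.20) and -3.13 (SE 0.14). hsa-miR-17-5p outnumbered hsa-miR-106a-5p 41.9, 39.1 and 39.9 times in the input and 39.8, 33.7 and 45.5 times in m7G-RIP. The log2 ratio of hsa-miR-106a-5p over hsa-miR-17-5p differed by 0.04 (exact permutation p = 0.8), and by -0.06 to 0.14 when single libraries were left out. The value of -0.06 was without m7G-RIP replicate 2. Because the pair differs only at its first base, reads that lack this base or carry an error there cannot be assigned to one of them, and the allowed mismatch in mapping bears on both.

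hsa-miR-20b-5p and hsa-miR-20a-5p differ by C1U and C10U. Both were depleted, hsa-miR-20a-5p by -3.36 (SE 0.15, adjusted p = 2.87e-10) on the log2 scale. Their log2 ratio went from -9.69 ± 0.14 in the input to -10.46 ± 1.29 in m7G-RIP (SD, n = 3 each), a difference of -0.77 that lay within the spread of the m7G-RIP libraries (exact permutation p = 0.4, adjusted p = 0.457). It was -1.39 without m7G-RIP replicate 2 and -0.10 without m7G-RIP replicate 3, so the pair could not be told apart at these counts.

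hsa-miR-25-3p and hsa-miR-92a-3p share the seed AUUGCAC and were called in opposite directions. hsa-miR-92a-3p was enriched (log2 0.90, SE 0.14, adjusted p = 8.03e-05), and it outnumbered hsa-miR-25-3p 14.9, 13.9 and 15.4 times in the input and 69.7, 71.2 and 92.7 times in m7G-RIP. The ratio of hsa-miR-25-3p over hsa-miR-92a-3p thus fell 5.24-fold. The pair differs by C1U, U14C, U18C and A22U. hsa-miR-92a-3p is produced from 2 hairpins, one of them in the miR-106a-363 cluster and one in the miR-17/92 cluster, and its reads cannot be divided between them. How reads with several loci were counted is not given, so its ratios to hsa-miR-25-3p may be inflated. A factor common to all libraries would not alter the 5.24-fold fall.

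Other arms of the miR-106a-363 cluster were followed as a list of 9, of which 3 were tested, 1 enriched and 2 depleted, with a median log2 enrichment of -3.89 beside 0.16 for all tested miRNAs. In all libraries 6 of them were at 0, namely hsa-miR-106a-3p, hsa-miR-18b-3p, hsa-miR-20b-3p, hsa-miR-19b-2-5p, hsa-miR-92a-2-5p and hsa-miR-363-5p. Besides hsa-miR-92a-3p, hsa-miR-18b-5p was depleted (log2 -3.89, SE 0.55), with 143, 158 and 123 counts in the input and 2, 7 and 0 in m7G-RIP. hsa-miR-19b-3p was depleted as well (log2 -5.54, SE 0.40), and it too is produced from both clusters. The detected 5p arms of the chromosome X cluster, hsa-miR-106a-5p, hsa-miR-20b-5p and hsa-miR-18b-5p, thus had log2 enrichments between -3.07 and -3.89.

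Among miR-17 seed miRNAs outside both clusters, a list of 4, hsa-miR-17-5p and hsa-miR-20a-5p were tested and both were depleted, with a median log2 enrichment of -3.25. Of 4 other miR-92 seed miRNAs, 3 were tested, with a median of 0.90. hsa-miR-92a-3p and hsa-miR-92b-3p (log2 1.72, SE 0.13) were enriched, and hsa-miR-32-5p (log2 -5.56, SE 0.23) was depleted. Together with hsa-miR-25-3p, that seed group spanned from -5.56 to 1.72, while every tested AAAGUGC miRNA lay between -5.02 and -2.43.

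Passenger arms of the miR-17/92 cluster, a list of 6 with 5 tested and a median log2 enrichment of -2.44, were compared with hsa-miR-25-5p. hsa-miR-92a-1-5p, which occupies the same arm opposite a miR-92 seed strand, was enriched (log2 2.72, SE 0.15, adjusted p = 1.87e-09). hsa-miR-17-3p (-4.36), hsa-miR-20a-3p (-2.44) and hsa-miR-19b-1-5p (-2.83) were depleted on the log2 scale, and hsa-miR-18a-3p had a log2 enrichment of -0.01 (SE 0.15, adjusted p = 0.945). Passenger arms were therefore found on both sides.

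The members were next read against the guanosines of their own sequences, since m7G is a modified guanosine. hsa-miR-25-5p has 9 guanosines, 42.9% of its bases, and 3 runs of 2 or more guanosines, the highest of the members in each. hsa-miR-93-5p follows at 34.8% and hsa-miR-106b-3p at 31.8%, while hsa-miR-25-3p and hsa-miR-93-3p have 22.7% and hsa-miR-363-3p has 18.2%. hsa-miR-106b-5p is at 28.6% and has no such run, and hsa-miR-93-3p has none either. The order by guanosine share was not the order by enrichment, as hsa-miR-106b-5p holds more guanosine than hsa-miR-25-3p but had the lower log2 enrichment, -5.02 against -1.47.

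Across the 714 tested miRNAs with a sequence, guanosine share and log2 enrichment had a Pearson r of 0.498 and a Spearman rho of 0.497, given as a description, since miRNAs share libraries and are not replicates. The median guanosine share was 40.9% in 290 enriched and 22.7% in 268 depleted miRNAs. With 3 or more guanosine runs, as in hsa-miR-25-5p, 82.4% of 153 miRNAs were enriched. With 1 run, as in most members, 19.0% of 237 were enriched, and with none 25.9% of 185.

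**Figure D5:**
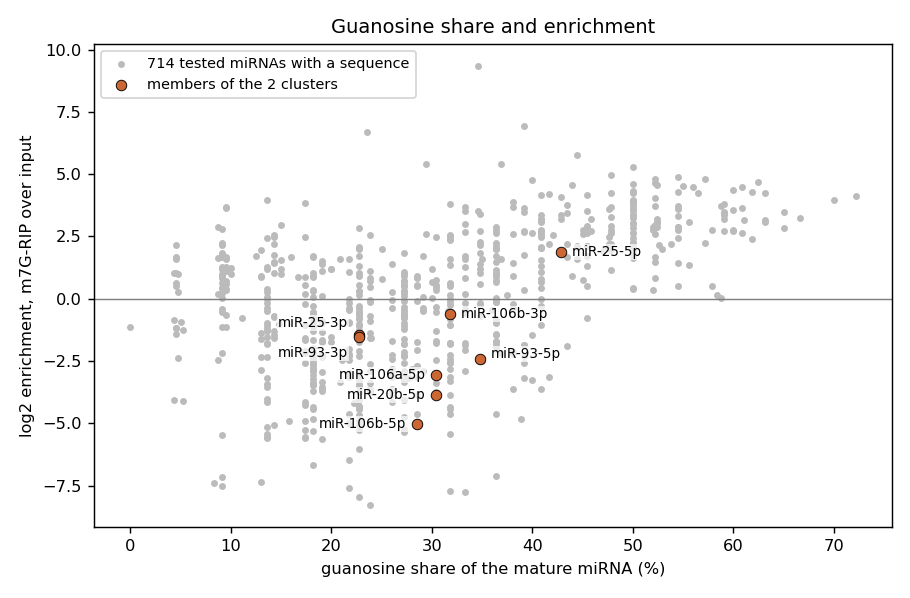
Guanosine share of the mature miRNA (percent) against log2 enrichment of m7G-RIP over input for 714 tested miRNAs (grey), with the 8 tested members in orange. hsa-miR-25-5p lies at 42.9% and 1.87, and the other 7 members lie below 0 at shares from 22.7% to 34.8%.

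Hairpins were searched on the given strand for 4 runs of at least 2 guanosines, separated by 1 to 12 bases, a pattern that could form a G-quadruplex. Of the 4 hairpins with a sequence, MIR106B, MIR25, MIR106A and MIR363, only MIR25 held it, beside 41.2% of 1562 human hairpins. With linkers of at most 7 or 3 bases none of the 4 held it, beside 29.3% and 12.4% of all hairpins. The study used those linker limits for runs of at least 2 guanosines, so the match in MIR25 rests on a looser pattern. A match describes letters and not a structure.

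The tested miRNAs nearest to hsa-miR-106b-5p and hsa-miR-25-5p by Euclidean distance over log2 CPM in the 6 libraries were taken for comparison. Nearest to hsa-miR-106b-5p were hsa-miR-500b-5p (distance 1.23, log2 enrichment -4.18), hsa-miR-500a-5p (1.25 and -4.15) and hsa-miR-374a-5p (1.28 and -4.38). Nearest to hsa-miR-25-5p were hsa-miR-193a-5p (0.286 and 1.71), hsa-miR-30b-3p (0.331 and 1.93) and hsa-miR-296-3p (0.810 and 2.29). The distance was taken over the same 6 libraries, so similar log2 enrichments follow from the choice and are not evidence. hsa-miR-500a-5p and hsa-miR-500b-5p are also near-identical, so their values are not separate from each other.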

How the data were processed

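Small RNA was sequenced from 3 input and 3 m7G-RIP libraries of Caco-2 cells. For each library the authors deposited whole-number counts on mature miRNAs, without normalization, which they made by trimming with Trimmomatic and counting with featureCounts on miRBase annotation of GRCh38. The study's methods name STAR as the aligner, with 1 mismatch and several loci allowed, whereas the submitters' processing notes name Bowtie2, and how reads with several loci were counted is not given in the sources used here.

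Counts were analysed with edgeR 4.0.16 in R 4.3.3: filterByExpr (minimum count 10, minimum total 15), TMM factors and the quasi-likelihood test, with Benjamini-Hochberg adjustment over all 800 tested miRNAs and calls at an adjusted p-value under 0.05. The SE is the absolute log2 enrichment divided by the square root of F. Arm ratios used a pseudocount of 0.5. Python 3.11.15, numpy 2.4.6, pandas 2.3.3, scipy 1.17.1 and matplotlib 3.10.9 were used for the rest. The fit was tested on simulated data. Alternatives were other scalings, DESeq2 1.42.0, other filters, a replicate block, a pseudocount of 1 and leaving out each library. Locations are from GENCODE on GRCh38.

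Total counts had a median of 16652506 in the input and 3087921 in m7G-RIP. No libraries were copies of each other. The members, lists and tests were chosen with earlier results of these data known. Named miRNAs are the members, the tested miRNAs of the related-cluster lists, some of the marker lists, and the 3 nearest in pattern to hsa-miR-106b-5p and to hsa-miR-25-5p. List miRNAs at 0 in all libraries or in the input were named after their values were seen. Hairpins of MIR93 and MIR20B were not used here.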

Additional observations from a re-analysis of the deposited data

How the results depend on the processing

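Of 103 member values under the alternatives, 100 kept their direction and side of the threshold. The exceptions were hsa-miR-106b-3p, with log2 0.52 by total counts and 0.22 by upper-quartile factors, and hsa-miR-93-3p, with -0.42 by total counts. Total counts thus gave 2 enriched members (hsa-miR-25-5p and hsa-miR-106b-3p) and 198 depleted miRNAs in all, against 305. Requiring 10 counts in every library, which tests only 426 miRNAs, left 182 enriched and 175 depleted, against 321 and 305. Without the filter hsa-miR-363-3p was tested too and 8 members were called depleted, where 423 of all 1744 miRNAs tested were depleted. Leaving out single libraries gave 268 to 341 enriched and 235 to 377 depleted miRNAs, of 668 to 967 tested. The members gave 1 enriched and 7 depleted each time. Of the pair ratios, hsa-miR-106a-5p over hsa-miR-17-5p changed sign without m7G-RIP replicate 2, to -0.065, and lay within -0.06 to 0.14. With the replicate number as a block, 296 miRNAs were enriched and 295 depleted and no member changed its call. Same-numbered libraries did not deviate together (correlations -0.00629, -0.0186 and 0.0464). The labels do not say whether they came from the same RNA, and correlations over so few libraries cannot decide it. Depth limits hsa-miR-20b-5p and hsa-miR-363-3p.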

Other observations

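Counts of miRNAs with several hairpins were often multiples of the number of hairpins. Of 314 counts above 0 for miRNAs with 2 hairpins in the RefSeq table, 239 (76.1%) were multiples of 2, where 50.0% is the share of even numbers. For miRNAs with 3 hairpins 39 of 57 counts were multiples of 3, and for those with 4 hairpins 24 of 25 were multiples of 4. The members have 1 hairpin each, while hsa-miR-92a-3p and hsa-miR-19b-3p have 2. How reads with several loci were counted is not given in the sources used here.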
